A study of Homo sapiens with 6 samples.

Results

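The zinc finger genes of 19q13.4, at the end of the long arm of chromosome 19, were compared between arsenite-transformed and untreated prostate epithelial cells. They were taken by symbol (ZNF, ZFP, ZSCAN or ZKSCAN followed by a number) and by a RefSeq start on GRCh38 of 51 Mb or more on chromosome 19, leaving out 5 genes, ZNF667, ZNF583, ZNF471, ZFP28 and ZNF470. This gave 97 genes of the 18417 measured, 93 of them protein-coding and 4 transcribed pseudogenes. RefSeq lists 111 genes of this symbol pattern in the stretch, and 9 of these had no feature of their own on the array. Band limits are not in the gene table, so the band is used as a name for the stretch beyond 51 Mb. The gene of the 97 nearest to this limit, ZNF175, differed by 0.40 between the groups (log2, CAsE-PE minus RWPE-1), and the nearest zinc finger gene outside it, ZNF473, by −0.21.

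CAsE-PE is a malignant line derived from RWPE-1 by continuous growth in 5 µM sodium arsenite, and was sampled after 30, 33.5 and 35 weeks of exposure. RWPE-1 is an immortal, non-tumorigenic line of normal adult human prostate epithelium immortalised with human papillomavirus, and its untreated cells were sampled at passages 18, 38 and 42. Both groups thus share the viral immortalisation and come from 1 line, and each held 3 single-colour whole-transcript arrays of total RNA. The labels name neither separate cultures nor untreated cells matched for time in culture, so p-values here reflect array-to-array spread alone, part of which may be technical, and exposure cannot be told apart from time in culture.

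Most genes of this family encode proteins with a row of C2H2 zinc fingers that reads DNA, often joined to a KRAB box. The KRAB box recruits the co-repressor KAP1 (gene TRIM28), which brings the H3K9 methyltransferase SETDB1 and heterochromatin protein to the bound site, often a transposable element. The family grew by tandem duplication, so neighbours are alike in sequence and array features can pick up RNA of a relative; single genes are uncertain in that respect. Some members of 19q13.4, among them ZNF154, ZNF582, ZNF671, ZNF677 and ZSCAN18, are known for promoter methylation in tumours.

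Array medians lay between 91.7 and 97.2 intensity units, and log2 values correlated at 0.985 to 0.995 between arrays of a group and at 0.957 to 0.969 between groups. Of 8 prostate epithelial markers 7 were measured, and the basal keratin gene KRT5 read 3569 to 4289 intensity units in CAsE-PE and 4091 to 4387 in RWPE-1. Of the markers, the keratin gene KRT14 fell (−1.60), as did the leukocyte markers CD68 (−0.89, adjusted p = 0.00516) and CD14 (−0.43, adjusted p = 0.0262) and the fibroblast marker PDGFRB (−0.32, adjusted p = 0.0479), and the cadherin gene CDH1 rose (0.39). The summed signal of the 7 epithelial markers was 13056 to 14820 in CAsE-PE and 15333 to 16050 in RWPE-1. Fibroblast markers summed to 517 to 538 in CAsE-PE and 525 to 550 in RWPE-1 (8 of 8 measured), endothelial markers to 179 to 199 and 195 to 224 (4 of 4), and leukocyte markers to 685 to 976 and 1233 to 1501 (5 of 6), most of it from the lysosomal gene CD68, which other cells also express. PTPRC, the defining leukocyte gene, read 12.3 to 13.6 in CAsE-PE and 13.34 to 14.9 in RWPE-1. No detection call accompanied the intensities, so none of these can be called absent, and the part of other cell types in the results below was not tested. In such bulk RNA, fewer cells of a type and less RNA per cell cannot be told apart.

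The comparison asks whether this stretch changed with malignant transformation. Among the 97 genes, 16 fell in CAsE-PE (16.5%, against 8.71% of all genes tested) and 2 rose (2.06%, against 9.04%), at an adjusted p under 0.05 in limma. Of the falls, 7 were by at least 2-fold (7.22%, against 2.06% of all genes), and 0 rose by 2-fold (against 1.55%). The other 79 did not pass. The median difference of the 97 was −0.10 (log2, CAsE-PE minus RWPE-1), against −0.06 over all genes, and 81 of 97 differed by less than 0.5 (83.5%, against 85.6%). The falls were thus large in a few genes while the middle of the family lay close to that of all genes. All log2 differences are of log2(intensity + 1), for 3 arrays in each group, and SE stands for limma's standard error.

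The deepest fall was that of ZNF542P, a transcribed zinc finger pseudogene. It read 21.8, 21.1 and 20.9 intensity units in CAsE-PE at 30, 33.5 and 35 weeks, against 203, 214 and 151 in RWPE-1 at passages 18, 38 and 42. All 3 CAsE-PE arrays were low and close together, and the groups lay far apart. The log2 difference was −3.08 (SE 0.14), or 8.45-fold (limma adjusted p = 4.58e-06). The CAsE-PE values are dim, and with a pseudocount of 16 in place of 1 the difference was −2.45. ZNF582, next to it along the chromosome, encodes a KRAB zinc finger protein and read 22.5, 30.2 and 26.8 in CAsE-PE, against 79.1, 63.3 and 69.3 in RWPE-1. Its groups were apart as well, with a difference of −1.38 (SE 0.13, limma adjusted p = 0.000210). The gene that follows ZNF582 is ZNF583, the first of the 5 genes left out, which all fell, by differences between −2.54 and −1.61.

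ZNF415, a coding zinc finger gene, read 61.1, 24.3 and 25.7 in CAsE-PE, against 143, 126 and 136 in RWPE-1. The 30-week array stood between the later CAsE-PE arrays and RWPE-1. The difference was −1.96 (SE 0.29, limma adjusted p = 0.00208), and −2.38 without the 30-week array. ZNF702P, a transcribed pseudogene, lies in the same block and read 54.2, 39.6 and 48.8 in CAsE-PE, against 122, 125 and 102 in RWPE-1 (difference −1.28, SE 0.14, adjusted p = 0.000407). ZNF677, a gene known as silenced by methylation in lung and thyroid tumours, read 19.4, 25.9 and 23.4 in CAsE-PE, against 56.8, 61.7 and 46.9 in RWPE-1 (difference −1.23, SE 0.14, adjusted p = 0.000512). In both genes every CAsE-PE array lay below every RWPE-1 array.

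ZNF135 and ZSCAN18 are direct neighbours near the end of the chromosome. ZNF135, a KRAB zinc finger gene, read 91.4, 91.1 and 76.6 in CAsE-PE, against 275, 242 and 330 in RWPE-1 (difference −1.69, SE 0.14, limma adjusted p = 7.80e-05). ZSCAN18, which pairs a SCAN domain, used for binding other SCAN proteins, with zinc fingers, read 111, 120 and 100.02 in CAsE-PE, against 272, 279 and 334 in RWPE-1 (difference −1.41, SE 0.12, adjusted p = 0.000101). Both sets of CAsE-PE values were well below those of RWPE-1. The genes on either side of this pair did not pass, ZSCAN1 with a difference of −0.20 and ZNF329 with 0.03.

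The other 9 falls were under 2-fold. ZNF577 read 109, 133 and 137 in CAsE-PE, against 213, 205 and 274 in RWPE-1 (difference −0.86, SE 0.14, adjusted p = 0.00349). ZNF665 read 18.0, 21.5 and 28.7 in CAsE-PE, against 38.8, 39.5 and 41.5 in RWPE-1 (−0.81, SE 0.16, adjusted p = 0.00709). ZNF154, a widely used methylation marker of tumours, read 54.5, 55.7 and 54.6 in CAsE-PE, against 112, 88.6 and 86.4 in RWPE-1 (−0.78, SE 0.12, adjusted p = 0.00240). In these 3 genes the groups did not overlap. ZNF880 (−0.77, SE 0.13) and ZNF432 (−0.64, SE 0.12) also fell, and with the other 10 described so far they make up the 12 falls that passed with each array left out in turn (4.72% of all genes did so in this direction).

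The remaining 4 falls were small and lost their call with some array left out. ZNF274, whose protein is known to bring SETDB1 and H3K9 methylation to the 3′ ends of other zinc finger genes, read 233, 208 and 234 in CAsE-PE, against 291, 274 and 315 in RWPE-1. That is a difference of −0.38 (SE 0.10, adjusted p = 0.0340), and the adjusted p was 0.108 without the 33.5-week array and above the threshold with every array left out but that of 30 weeks. ZNF256, known for binding KAP1, differed by −0.37 (SE 0.10, adjusted p = 0.0346). Whichever array was left out, this call was lost, at most with an adjusted p of 0.110, without 33.5 weeks. ZNF468 (−0.34, adjusted p = 0.0492) and the pseudogene ZNF818P (−0.41, adjusted p = 0.0287) lost theirs most without passage 38 (adjusted p = 0.158 and 0.124). Calls were also lost under other settings, those of ZNF468 and ZNF256 with median centring (adjusted p = 0.0926 and 0.0562), that of ZNF468 with an intensity trend (0.0558) and that of ZNF818P with a pseudocount of 16 (0.0621).

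Both rises were under 2-fold. ZNF543 read 241, 182 and 203 in CAsE-PE, against 143, 146 and 141 in RWPE-1, a difference of 0.53 (SE 0.12, adjusted p = 0.0159). The call was lost without passage 38 (adjusted p = 0.0564). ZNF586 read 268, 251 and 265 in CAsE-PE, against 208, 214 and 200.2 in RWPE-1 (0.33, SE 0.09, adjusted p = 0.0396), and its call held in no fit that left out an array, with an adjusted p up to 0.121, without 35 weeks. It was lost as well after quantile normalisation (adjusted p = 0.0582) and with an intensity trend (0.0517). The number of rises was 0 without passage 38, 1 without passage 42 or without 35 weeks, 2 without passage 18, 3 without 30 weeks and 5 without 33.5 weeks. The share of all genes that rose in each of these fits is not given here.

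**Figure D1:**
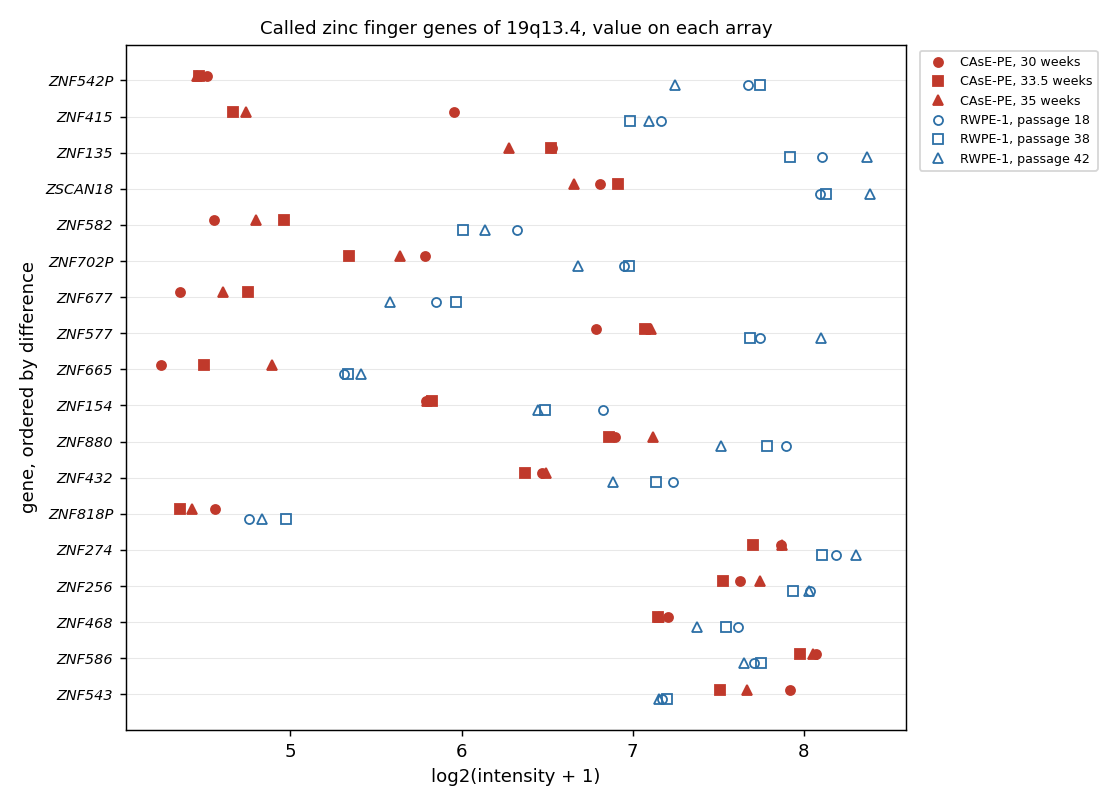
Value on each array, as log2(intensity + 1), of the 18 genes with an adjusted p under 0.05, ordered by difference from ZNF542P at the top to ZNF543 at the bottom; filled red marks are the 3 CAsE-PE arrays and open blue marks the 3 RWPE-1 arrays. In the 16 upper genes every red mark lies left of every blue one, in the 2 lowest genes right of it, and in ZNF415 the 30-week array stands apart from the later weeks.

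In all 18 of these genes the groups were apart, which their choice by adjusted p in the same comparison makes likely and which adds no support. Over the whole family, 27 of 97 genes had every CAsE-PE array below every RWPE-1 array (against 22.8% of all genes) and 9 had every one above (against 16.1%). Of the 97 differences 64 were negative, against 59.5% of all genes.

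Among genes that did not pass, the largest negative differences were those of ZNF610 (−0.61, adjusted p = 0.0600), ZNF614 (−0.40, adjusted p = 0.0619) and ZNF528 (−0.38, adjusted p = 0.0547). ZNF610 and ZNF528 stand on either side of ZNF880. The largest positive differences were those of ZNF805, ZNF814 and ZNF83. ZNF805 read 403, 178 and 211 in CAsE-PE, against 138, 144 and 138 in RWPE-1 (0.82, SE 0.25, adjusted p = 0.0548). ZNF814 read 187, 219 and 314 in CAsE-PE, against 182, 145 and 110 in RWPE-1 (0.71, SE 0.22, adjusted p = 0.0545), and ZNF83 differed by 0.44 (adjusted p = 0.106). In ZNF805 and ZNF814 no CAsE-PE value lay within the RWPE-1 range, but 1 CAsE-PE array stood far above the others, at 30 weeks in ZNF805 and at 35 weeks in ZNF814.

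Members with well-known roles in imprinting, early development or cancer were read as well. ZNF331, an imprinted gene, read 189, 167 and 163 in CAsE-PE, against 149, 129 and 169 in RWPE-1, with overlapping groups (0.22, SE 0.12, adjusted p = 0.264). ZNF671, known from methylation tests for cervical cancer, read 119, 127 and 121 in CAsE-PE, against 117, 136 and 154 in RWPE-1 (−0.15, SE 0.12, adjusted p = 0.423). It lies next to ZNF154, which fell. ZSCAN4, which in mouse embryonic stem cells marks a transient early-embryo state and lengthens telomeres, read 14.1 to 18.8 in CAsE-PE and 13.9 to 18.3 in RWPE-1 (0.02, SE 0.14, adjusted p = 0.946), a difference whose sign changed with quantile normalisation and with 3 of the arrays left out.

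Along the chromosome the genes fell into 3 blocks, a new one beginning where the next gene starts over 0.5 Mb further. The block from ZNF175 to ZNF331 held 39 genes, of which 9 fell (23.1%, against 8.71% of all genes) and 0 rose (against 9.04%), with a median difference of −0.18. The block from ZNF628 to ZNF835 held 15, of which 2 fell (13.33%, ZNF542P and ZNF582) and 0 rose, with a median of −0.12. All 15 differences were negative (against 59.5% of all genes), but the nearest to 0 was −0.0006. That gene's difference reached 0.13 with an array left out, so the count of 15 is not firm. The block from ZNF264 to ZNF446 held 43, of which 5 fell (11.6%) and 2 rose (4.65%), with a median of 0.02. Among the 97 genes, the shares of falls in the middle and last blocks thus lay near that of all genes. The 5 genes left out by the rule lie within the middle block, between ZNF582 and ZNF71, and all fell. The count and median of that block therefore depend on leaving them out. Thus both rises lay in the last block, whose median was slightly above 0 where the others were below. Differences between blocks were not tested.

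Of the falls, 7 stood in 3 runs of adjacent genes, counting only the 97 genes. These were ZNF665, ZNF818P and ZNF677, the pair ZNF542P and ZNF582, and the pair ZNF135 and ZSCAN18. The pair ZNF542P and ZNF582 is followed directly by ZNF583, the first of the 5 genes left out, which all fell. The rule thus cuts that run short. The other 9 had no falling gene of the 97 on either side. ZNF415, between ZNF160 (0.17) and ZNF347 (−0.37), fell more deeply than either, and neither of those passed. ZNF154 stood likewise alone between ZNF551 (−0.23) and ZNF671. The plot in chromosomal order shows both arrangements.

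**Figure D2:**
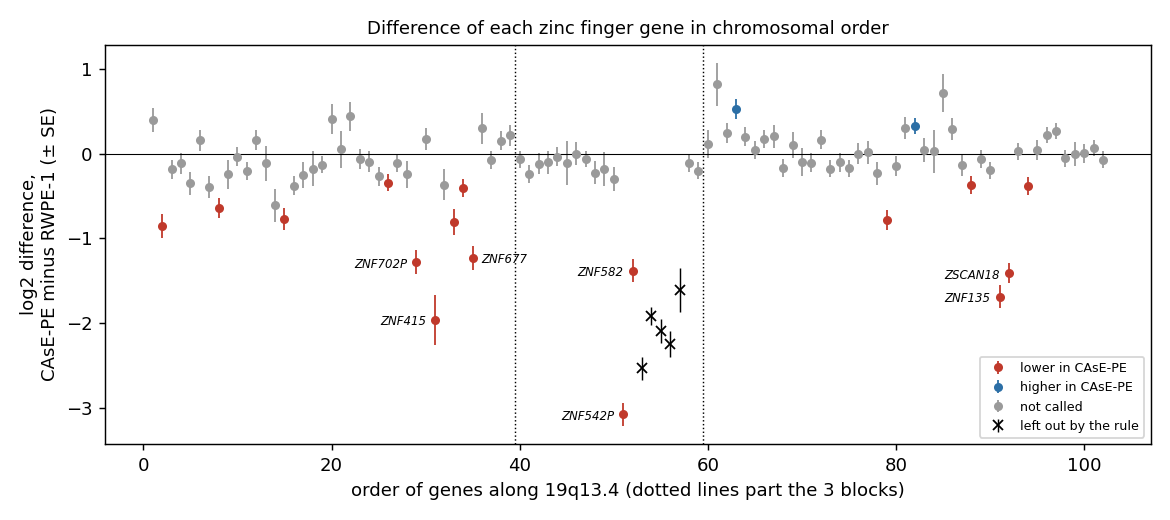
Log2 difference (CAsE-PE minus RWPE-1, bars ± SE, n = 3 arrays each) of the 97 genes, in order along the chromosome, with the 5 genes left out by the rule as crosses; dotted lines part the 3 blocks. Red genes fell and blue genes rose at an adjusted p under 0.05. ZNF542P, at −3.08, and ZNF582 stand just before the 5 crosses, whereas most genes lie within 0.5 of 0.

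By class of gene, 13 of the 93 protein-coding genes fell (14.0%, against 8.71% of all genes) and 2 rose (2.15%, against 9.04%), with a median difference of −0.10. Of the 4 transcribed pseudogenes 3 fell (ZNF542P, ZNF702P and ZNF818P), and ZNF137P differed by 0.05. At the share of all genes fewer than 1 of 4 or of 6 genes would fall, and both classes are too small for a share to be read from them. Of the 6 ZSCAN genes, 1 fell, ZSCAN18, and the others differed by −0.30 to 0.27.

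The promoter windows of the genes that fell by at least 2-fold are given because promoter CpG sites are where DNA methylation of such genes is usually measured; methylation itself was not measured here. RefSeq promoters (GRCh38.p14, 250 bases before to 50 after the start) matched 83 of the 97 genes, 12 of the 16 falls and 5 of the 7 deepest. They are printed 5′ to 3′ with each CpG in capitals, followed by that of ZNF543, which rose. They lie at chr19:53132861-53133160 (minus strand) for ZNF415, chr19:58058989-58059288 (plus strand) for ZNF135, chr19:58118355-58118654 (minus strand) for ZSCAN18, chr19:56393485-56393784 (minus strand) for ZNF582, chr19:53254774-53255073 (minus strand) for ZNF677 and chr19:57320222-57320521 (plus strand) for ZNF543.
ZNF415: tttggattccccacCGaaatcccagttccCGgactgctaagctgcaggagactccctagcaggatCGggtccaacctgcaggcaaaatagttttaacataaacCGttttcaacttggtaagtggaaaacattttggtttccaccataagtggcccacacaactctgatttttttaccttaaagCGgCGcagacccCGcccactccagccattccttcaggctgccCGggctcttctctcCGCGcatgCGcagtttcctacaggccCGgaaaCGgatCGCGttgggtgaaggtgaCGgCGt
ZNF135: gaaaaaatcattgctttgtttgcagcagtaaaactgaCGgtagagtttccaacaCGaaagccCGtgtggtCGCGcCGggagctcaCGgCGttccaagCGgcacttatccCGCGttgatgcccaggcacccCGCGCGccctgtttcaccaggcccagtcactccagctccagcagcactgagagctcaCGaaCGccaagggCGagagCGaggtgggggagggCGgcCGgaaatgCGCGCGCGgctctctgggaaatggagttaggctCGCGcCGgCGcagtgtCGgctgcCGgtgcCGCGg
ZSCAN18: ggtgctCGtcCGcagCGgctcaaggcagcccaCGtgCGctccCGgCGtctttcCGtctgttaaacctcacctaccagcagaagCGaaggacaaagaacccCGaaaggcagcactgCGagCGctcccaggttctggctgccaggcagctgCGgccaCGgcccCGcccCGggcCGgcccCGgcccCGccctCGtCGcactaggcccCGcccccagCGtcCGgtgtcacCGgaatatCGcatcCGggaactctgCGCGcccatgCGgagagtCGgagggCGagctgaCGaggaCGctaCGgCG
ZNF582: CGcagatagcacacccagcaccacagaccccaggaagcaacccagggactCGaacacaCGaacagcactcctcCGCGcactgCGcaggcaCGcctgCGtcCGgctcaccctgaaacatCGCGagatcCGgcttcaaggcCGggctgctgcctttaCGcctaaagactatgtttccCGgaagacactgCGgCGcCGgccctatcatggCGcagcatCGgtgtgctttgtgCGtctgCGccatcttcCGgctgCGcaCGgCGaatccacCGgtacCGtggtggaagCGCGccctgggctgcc
ZNF677: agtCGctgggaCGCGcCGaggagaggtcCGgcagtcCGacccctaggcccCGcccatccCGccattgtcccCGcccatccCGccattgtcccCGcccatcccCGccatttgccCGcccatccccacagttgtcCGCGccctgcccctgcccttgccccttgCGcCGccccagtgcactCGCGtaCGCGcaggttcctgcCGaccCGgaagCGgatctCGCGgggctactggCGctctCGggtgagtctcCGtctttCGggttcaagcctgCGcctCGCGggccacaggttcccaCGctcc
ZNF543: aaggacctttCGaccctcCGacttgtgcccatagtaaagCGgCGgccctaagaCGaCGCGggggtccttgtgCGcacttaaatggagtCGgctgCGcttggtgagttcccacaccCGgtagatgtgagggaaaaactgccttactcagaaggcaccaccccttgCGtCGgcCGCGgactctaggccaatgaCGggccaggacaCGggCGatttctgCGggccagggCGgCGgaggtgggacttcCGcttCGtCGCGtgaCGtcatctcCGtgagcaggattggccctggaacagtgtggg

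These windows of 300 bases held 17 CpGs in ZNF415, 32 in ZNF135, 36 in ZSCAN18, 30 in ZNF582, 34 in ZNF677 and 27 in ZNF543. The 5 deep falls had a median of 32, the 12 falls one of 26.5 and the 69 genes that did not pass one of 23, against 23 over the 14237 measured genes with a promoter. ZNF415, the deepest coding fall, had the fewest CpGs of the 5. ZNF154, with 14, also fell. Over the 83 genes the difference and the CpG count had a Pearson r of −0.16 and a Spearman rho of −0.10, a description only, since the genes share 6 arrays and a common ancestry.

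**Figure D3:**
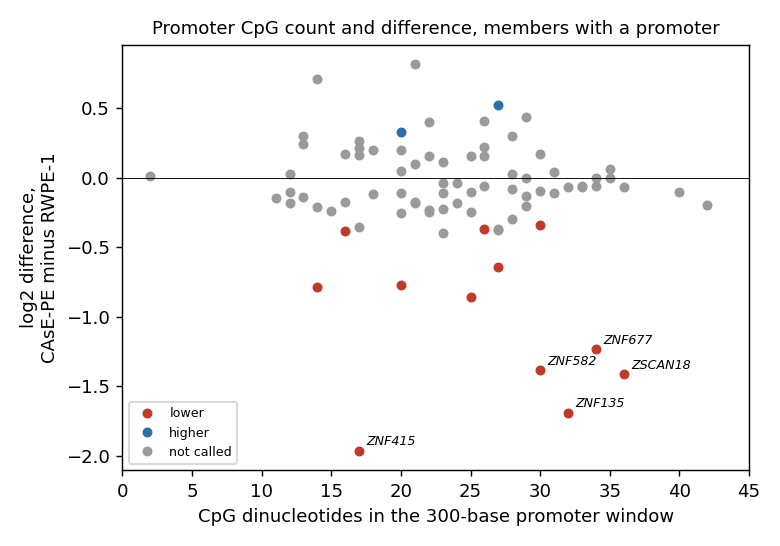
Log2 difference (CAsE-PE minus RWPE-1) against the number of CpG dinucleotides in the promoter window of 300 bases, 1 point per gene with a RefSeq promoter (83 genes). Of the 5 named deep falls 4 have 30 to 36 CpGs and ZNF415 has 17, and grey genes that did not pass cover the same range.

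Letters known as binding sites were searched on both strands of the same windows, none of the searched words containing another. The ETS core CCGGAAG stood in 48 of 83 promoters of the family (57.8%), against 35.5% of 344 promoters of zinc finger genes elsewhere, 12.2% of 98 promoters of other genes of the stretch and 14.6% of all 14237. It stood in 6 of the 12 falls, among them ZNF677 and ZNF582, and in 41 of the 69 genes that did not pass (59.4%). The SP1 GC box GGGCGG stood in 60 of 83 (72.3%, against 60.0% of all) and the TATA box TATAAA in 2 (2.41%, against 1281 of all 14237 promoters). The YY1 core AAGATGGCG stood in 3 (3.61%, against 2.87%), the NRF1 core, searched in its palindromic form, in 1, that of ZNF415 (1.20%, against 256 of all 14237), the CREB site TGACGTCA in 1, that of ZNF543 (1.20%, against 2.65%), and the E2F site TTTGGCGC in 2 (2.41%, against 0.864%). A match is a string of letters and not a measured binding site.

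The stretch was set beside zinc finger genes elsewhere, chosen by the same symbol pattern. Genes were left out of 19q13.4 alone, and all 5 of them fell by at least 2-fold. Its share of falls is thus lower than it would be with them. On 19q13.4, 16 of 97 fell (16.5%, against 8.71% of all genes) and 2 rose (2.06%, against 9.04%), with a median of −0.10. On 19p12, 16 of 30 fell (53.3%) and 0 rose, with a median of −0.63. On 19p13, 9 of 46 fell (19.6%) and 0 rose (median −0.03). On 19q12 to 19q13.3, 3 of 66 fell (4.55%) and 5 rose (7.58%), with a median of 0.06. Outside chromosome 19, 30 of 280 fell (10.7%, near the share of all genes) and 41 rose (14.6%), with a median of 0.07. By count, 19q13.4 without those 5 genes lay near 19p13 and between 19p12 and the rest, and the differences between these groups were not tested.

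The other genes of the same stretch, which do not match the symbol pattern, numbered 131, and 11 fell (8.40%, against 8.71% of all genes) and 1 rose (0.763%, against 9.04%), with a median difference of −0.14. The share of falls was thus about that of all genes. Of their differences 114 were negative (against 59.5% of all genes). Their deepest falls were those of ZNF667-AS1, an RNA antisense to one of the genes left out (−4.74, or −4.10 with a pseudocount of 16, SE 0.21, limma adjusted p = 4.58e-06), NLRP2, an innate immune sensor of the inflammasome family (−2.25), the kallikrein protease gene KLK10 (−1.87), ZIK1, itself a KRAB zinc finger gene under another symbol (−1.18), and the membrane protein gene MYADM (−0.74). MYADM lost its call without passage 38 (adjusted p = 0.0522). There were 6 falls among the 131 without passage 38, and 7 without 33.5 weeks or without 35 weeks.

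**Figure D4:**
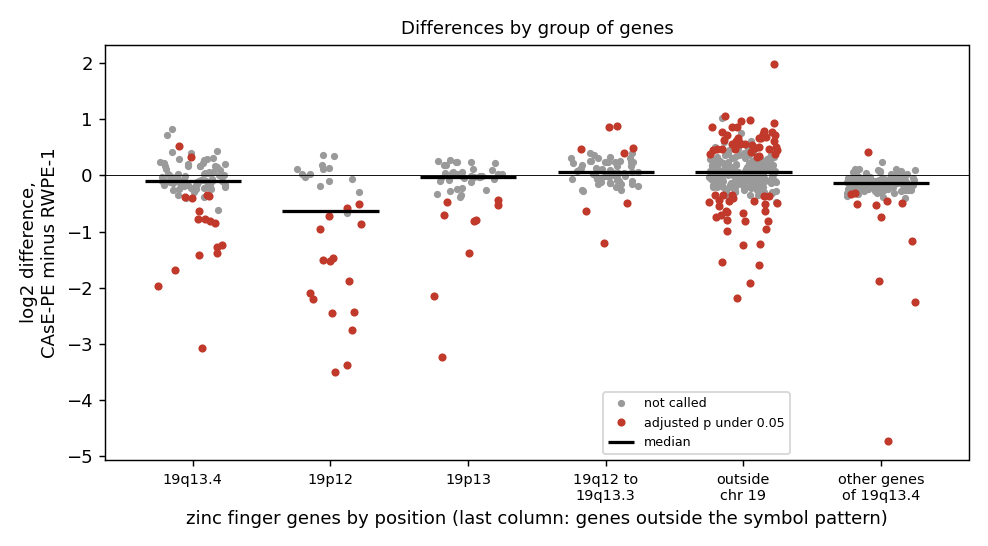
Log2 difference (CAsE-PE minus RWPE-1) of each gene, 1 point per gene, for the 97 zinc finger genes of 19q13.4 at the left, zinc finger genes of other positions, and other genes of 19q13.4 at the right; red points have an adjusted p under 0.05 and black lines are medians. The median of 19q13.4 is −0.10 and that of 19p12 is −0.63, while the low tail of 19q13.4 reaches −3.08.

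The co-repressor that KRAB proteins work through, KAP1, was read together with its partners. Of 29 listed genes of the KAP1 pathway 27 were measured, and 2 fell (against 8.71% of all genes) and 4 rose (against 9.04%), with a median difference of −0.02. TRIM28, which itself lies on 19q13.4, read 1155, 1348 and 1284 in CAsE-PE, against 1444, 1411 and 1308 in RWPE-1, with overlapping groups (−0.14, SE 0.10, limma adjusted p = 0.388). The H3K9 methyltransferase gene SUV39H2 read 260.0, 325 and 303 in CAsE-PE, against 528, 484 and 425 in RWPE-1 (−0.69, SE 0.13, adjusted p = 0.00535), and ATF7IP2, a relative of the SETDB1 cofactor ATF7IP, fell by 0.68 (SE 0.14, adjusted p = 0.0105). Both falls passed with each array left out.

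SETDB1 read 300, 241 and 258 in CAsE-PE, against 197, 208 and 188 in RWPE-1, a rise of 0.42 (SE 0.11, limma adjusted p = 0.0309). MORC2, part of HUSH-dependent silencing, rose by 0.48 (adjusted p = 0.0326), EHMT1, a methyltransferase for H3K9, by 0.38 (adjusted p = 0.0246) and CBX1, a heterochromatin protein 1 gene, by 0.35 (adjusted p = 0.0420). All 4 rises were under 2-fold and were lost with some array left out, SETDB1 with an adjusted p of 0.0825 without passage 18, EHMT1 with 0.0880 without passage 38, and MORC2 and CBX1 with 0.121 and 0.147 without 35 weeks. The number of rises in the list was 0 to 3 with 1 array left out.

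Drift within a group was tested in a second limma model with 1 slope for RWPE-1 passage and 1 for CAsE-PE weeks, which leaves 2 residual degrees of freedom. By passage 0 of 97 genes passed (against 0.0217% of all genes) and by weeks 0 of 97 (against 0.25%). At an unadjusted p under 0.05 there were 7 by passage (against 5.82%) and 13 by weeks (against 11.3%). ZNF415 had the lowest slope with weeks, −0.27 log2 units per week (adjusted p = 0.0726). The median of the 16 falling genes was 6.21, 6.10 and 6.04 log2 units in CAsE-PE at 30, 33.5 and 35 weeks and 7.43, 7.34 and 7.17 in RWPE-1 at passages 18, 38 and 42, where the choice of these genes fixed that CAsE-PE lay lower. The median of the 79 genes that did not pass was 7.31 to 7.41 in CAsE-PE and 7.27 to 7.32 in RWPE-1. Gene by gene, however, their median difference was −0.06, with 48 of the 79 differences negative (against 59.5% of all genes) and 31 positive.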

How the data were processed

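Total RNA of 6 samples, 3 of CAsE-PE and 3 of RWPE-1, was hybridised to single-colour arrays after labelling with an Ambion kit, per the labels. The authors deposited 1 linear intensity per feature and array for 33252 features, with a range of 2.25 to 16617; how they were background-corrected, summarised and normalised was not stated in any source at hand. By GEO's platform annotation 19460 features name 1 gene and 1754 name more; 12038 are unlisted. Of those with 1 symbol, 19429 had an Entrez identifier in RefSeq (GRCh38.p14), which gave chromosome, order and promoters. Each of 18417 genes was taken at its brightest feature (ZNF616 alone among the 97 had more than 1).

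The deposited intensities were used as log2(intensity + 1), which understates changes of dim genes. The comparison used lmFit and eBayes of limma 3.58.1 under R 4.3.3, two-sided, with Benjamini-Hochberg adjustment over all 18417 genes; a gene was called at an adjusted p under 0.05. The fit was tested on simulated data. Alternatives were quantile normalisation, median centring, a pseudocount of 16, leaving out the dimmest of 3 equal parts of the genes, averaging features, an intensity trend, a robust prior, array weights, a test against 1.5-fold, and each array left out in turn. The members, lists and alternatives were chosen with earlier results of these data known. By rule the text names called members, the 3 largest uncalled differences each way, 6 genes of known role and the ends of blocks. It also names up to 5 called genes each of the KAP1 list and of the other genes of the stretch. The rule also planned the brightest 3 and dimmest 3 uncalled members, which are not described as a set in the results. CBX1, TRIM28, the neighbours of called genes, ZNF137P and ZNF473 were added after their values were seen. The planned sorting of proteins by finger number and KRAB box was not done, since protein sequences were not used here. Other tools were Python 3.11.15, pandas 2.3.3 and scipy 1.17.1.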

Additional observations from a re-analysis of the deposited data

How the results depend on the processing

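Of the named genes ZSCAN4, never called, changed sign: 0.02 became −0.022 after quantile normalisation and −0.098 without the 30-week array, and it was also negative without passage 18 or 38. Among genes named as neighbours, block ends or for other reasons, ZNF137P (0.05), ZNF264 (0.11) and ZNF329 (0.03) reached −0.13, −0.09 and −0.02 with an array left out. ZNF616 (−0.04) reached 0.04. Apart from ZSCAN4, the called genes named, the largest uncalled differences and the genes of known role kept their direction in every alternative run. Of the brightest and dimmest uncalled genes, ZNF480 (−0.11) and ZSCAN5B (−0.18) reached 0.08 and 0.015 with an array left out. ZNF460 (0.24) and ZNF578 (−0.18) kept their sign with each array left out. The 16 falls numbered 9 of 80 genes without the dimmest of 3 equal parts of the genes, since 8 of the 16 lie in that part and 1 other gene, ZNF528, passed there, and 7 in the test against a 1.5-fold difference, all shared with the 16; they numbered 14 to 21 under the other settings and 12 to 16 with 1 array left out. The 2 rises numbered 1 after quantile normalisation or with an intensity trend, 6 with array weights, 0 against 1.5-fold, and 0 to 5 with 1 array left out. The median of the 97 genes was −0.056 after median centring, which moved that of all genes to −0.01, and −0.12 to −0.08 with 1 array left out. Other genes of the stretch numbered 4 lower and 0 higher against 1.5-fold, 2 higher with array weights, and 6 to 11 lower and 0 to 1 higher with 1 array left out. The KAP1 list had 0 lower and 0 higher against 1.5-fold, and 2 to 3 lower and 0 to 3 higher with 1 array left out. For all these counts the share of all genes under the same setting is not given. A change in them therefore cannot be told apart from a change in calls over all genes. Causes were not tested. No paired analysis was possible because the labels give passages for one group and weeks for the other, with no shared replicate numbers. Without detection calls, low intensities cannot be told from background; 5 of the 7 deepest falls lie in the dimmest part.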

Other observations

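Features that name several genes were kept out of every count. There were 13 that name a zinc finger gene of the stretch, 8 of them naming a gene of the 97, with differences of −0.35 to 0.32 (log2, CAsE-PE minus RWPE-1). The highest differences, 0.32 and 0.26, were of features that name ZNF320 together with RPS27 and RGS4. These read 1263 to 2972 intensity units, against 98.0 to 121 for the feature of ZNF320 alone, and cannot be assigned to ZNF320. The feature shared by 10 relatives, among them ZNF468, ZNF83, ZNF701 and ZNF28, read 401, 356 and 391.6 intensity units in CAsE-PE, against 396, 381 and 454 in RWPE-1, a difference of −0.10. ZNF547, which had no feature of its own, read 110, 105 and 99.9 together with TRAPPC2B in CAsE-PE, against 103, 86.0 and 86.5 in RWPE-1. ZNF616, with a second feature, differed by −0.04 on the brighter and 0.19 on the dimmer one.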
